A study of Mus musculus with 359 samples.

Results

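The genes described here encode the proteins of the cytosolic ribosome. They were taken as the gene symbols made of Rpl or Rps and a number (with the endings a, a1 or x), Rplp0 to Rplp2 and Rpsa, with a mean level of 10 or more CPM (counts scaled to the library total) in a table of one tissue and one day. Of 24421 symbols, 77 had such a name. Of these, 47 reached 10 CPM in at least 1 of the 6 tables, 37 in every table and 30 in none. The members numbered 39 in liver and 44 in lung at day 2, 41 and 46 at day 5, and 37 and 46 at day 28. In the liver of day 2, Rpl18 (10.3 CPM) and Rpl5 (10.6 CPM) were just inside this limit, and Rps26 (8.95 CPM) and Rpl35a (8.72 CPM) just outside it. Between 5 and 14 of the 77 genes had a mean below 1 CPM in a table.

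The cytosolic ribosome translates messenger RNA in a small subunit, which decodes, and a large subunit, which joins amino acids. Each subunit is built from ribosomal RNA and many proteins that are made in nearly equal numbers, and most of these proteins are encoded by 1 active gene each. Their mRNAs are short and abundant and carry a run of pyrimidines at the start, which ties their translation to growth signals through mTOR and Larp1. Mammalian genomes also hold many processed pseudogenes of these genes, which are near copies of the mRNA inserted elsewhere.

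The samples were livers and lungs of male and female B6C3F1 mice, a hybrid strain, exposed to 4-MEI (4-methylimidazole), a small ring compound that arises in caramel colouring and roasted foods. At day 2 the mice had received 0, 50, 100, 200 or 300 mg/kg-d by gavage. At days 5 and 28 they had received 0, 150, 300, 1250 or 2500 ppm in feed. The group at 0 is called vehicle below, and the 359 libraries fell into 60 groups by tissue, day, sex and dose, 59 with 6 libraries and 1 (lungs of females at day 5, 2500 ppm) with 5. At day 28 the sample titles and the other labels named a different dose in 96 libraries and a different sex in 48 of them. The titles were used, because Y-linked genes matched the titles' sex. The column names of the count tables gave the same dose and sex in all 359 libraries. These names repeat the titles, so their match is no separate check. No measurement here checks the dose, so the day 28 dose groups rest on the titles. Totals ran from 7253910 to 22527309 counts, and the labels do not say how the animals were assigned, so p-values cover the spread between these libraries. The tissue labels matched their markers: Alb, the hepatocyte albumin, had a mean of 118400 CPM in liver and 6.37 CPM in lung at day 2, and Scgb1a1, a secretory protein of club cells, had 0.00125 and 32590 CPM.

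Because pseudogenes and related genes repeat much of these mRNAs, 3 pairs of coding stretches are shown first, each a gene of the rule and a nearly identical copy that has counts of its own in the tables. Coordinates are of GRCm38 with the GENCODE annotation, the capitals mark the bases that differ, and positions are counted from 1 at the first base of the start codon, with the gene's base first. Rpl37, a large subunit protein (chr15:5118567-5118626, plus strand), and Rpl37rt (chr5:115103238-115103297, minus strand) differed by G249A, which was the only difference in 294 coding bases (99.7% identity).
Rpl37: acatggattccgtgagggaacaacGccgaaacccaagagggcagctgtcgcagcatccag
Rpl37rt: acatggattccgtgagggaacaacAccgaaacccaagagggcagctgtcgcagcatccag
Rps15a, a small subunit protein (chr7:118114805-118114864, minus strand), and Rps15a-ps6 (chr11:6172844-6172903, minus strand) differed in this stretch by T150C and A164G, and by 5 of 393 coding bases in all (98.7% identity).
Rps15a: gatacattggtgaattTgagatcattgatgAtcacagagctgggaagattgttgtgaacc
Rps15a-ps6: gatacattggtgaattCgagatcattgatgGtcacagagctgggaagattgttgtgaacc
Rpl14, a large subunit protein (chr9:120574143-120574202, plus strand), and Rpl14-ps1 (chr7:45325367-45325426, plus strand) differed by C420T, A423G, G456T, T459A and A462T, which were the only differences in the 474 of 654 coding bases compared (98.9% identity). The comparison stopped where the copy fell out of step with the gene, so this identity does not cover the rest.
Rpl14: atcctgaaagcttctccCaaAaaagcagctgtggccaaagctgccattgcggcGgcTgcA
Rpl14-ps1: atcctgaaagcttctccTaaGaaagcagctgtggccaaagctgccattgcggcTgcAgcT

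In these pairs the counts lay mostly with the copy or were split between both. Rpl37 had a mean of 1.56 CPM over vehicle groups and belonged to no table's members, while Rpl37rt had means of 99.9 to 225 CPM in the 6 tables. Rps15a had 20.5 CPM and Rps15a-ps6 had means of 16.2 to 43.4 CPM. Rpl14 had 54.9 CPM and Rpl14-ps1 had 147.1 to 327 CPM. Reads that match both copies cannot be told apart by sequence, and how the counting treated them is not given in the sources used here, so the level of a single ribosomal protein gene is uncertain.

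The start sites of the genes were examined for the pyrimidine run. The windows below hold the 15 bases before and the 15 bases from the start of the RefSeq entry (GRCm38.p6), in the direction of the gene, and are shown for 5 of the genes with the motif CTTTC, which is in capitals.
Rpl13a: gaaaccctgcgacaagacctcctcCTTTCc
Rpl7a: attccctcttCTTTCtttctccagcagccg
Rpl15: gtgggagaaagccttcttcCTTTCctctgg
Rps26: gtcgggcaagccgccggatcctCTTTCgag
Rpl27a: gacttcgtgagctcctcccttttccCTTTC
These windows lie at chr7:45128731-45128760 (minus strand), chr2:26910792-26910821 (plus), chr14:18270972-18271001 (minus), chr10:128626492-128626521 (minus) and chr7:109519180-109519209 (plus). Of the 77 symbols, 57 had a RefSeq entry, 67 entries in all, and CTTTC stood on the gene's own strand in 16 of them (23.9%), against 1330 of all 32851 entries (4.05%). On the opposite strand it stood in 3 entries (4.48%), against 3.6% of all entries. The related run CTTTT stood on the gene's strand in 8.96% of these entries and in 3.15% of all.

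The level of a gene was ordered by how much of its coding sequence other genes share. For each gene the coding sequence was read in windows of 50 bases, and the share of windows found without a mismatch in the transcripts of any other gene was counted. The median share over the 77 genes was 90.3%. In the 25 genes with every window shared, the median level over vehicle groups was 3.44 CPM (0.449 to 38.6), and 7 of them reached 10 CPM in at least 1 table. In the 11 genes with under 50% of windows shared, the median was 127.4 CPM (24.7 to 405), and all 11 reached 10 CPM. The 41 genes between had a median of 17.96 CPM, and 29 reached it. The Spearman correlation of level and shared percentage over the 77 genes was -0.61, and it was -0.61 on CPM per kb of the longest transcript and -0.63 per kb of the median transcript length. These points share the same libraries. As a comparison outside the ribosome, Gapdh, a glycolytic enzyme with many pseudogenes, had 94.2% of its windows shared with 218 genes and means of 1.43 to 4.02 CPM in the 6 tables. Gapdh is 1 picked gene. The sharing of other genes outside the rule was not computed, among them Eef1a1 (means of 2260 to 2815 CPM) and Actb (279.3 to 2382 CPM). Whether sharing lowered the counts was not tested.

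**Figure D1:**
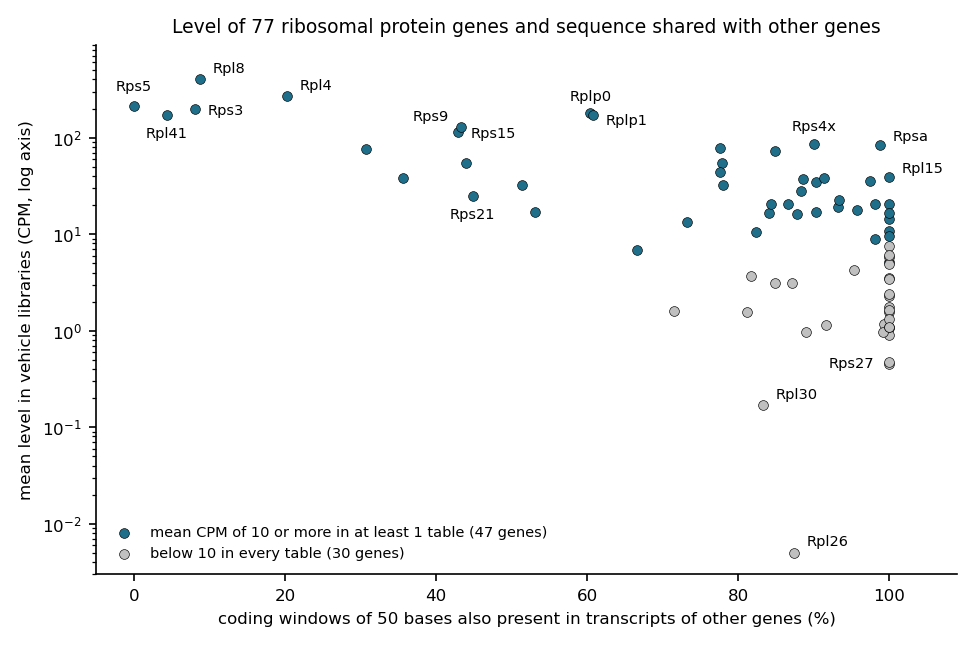
Mean level in vehicle libraries (CPM, log axis) of the 77 genes against the share of their 50-base coding windows also present in transcripts of other genes (%), with 1 point for each gene and colour showing whether it reached 10 CPM in a table; Rpl26, at 0.000932 CPM, is drawn at 0.005. Genes with under 50% of windows shared all lie at or above 24.7 CPM, and the genes below 1 CPM all have most of their windows shared.

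On the scale of CPM per kb of the longest transcript, the highest levels over the 72 vehicle libraries were those of Rpl8 (mean 398, SD 138.9), Rplp1 (347, SD 120), Rpl41 (249, SD 92.9), Rps15 (202, SD 92.4) and Rpl4 (176, SD 42.6). Rpl8 lies near the site of peptide bond formation, Rplp1 is part of the stalk that recruits elongation factors, Rpl41 is a very short peptide, Rps15 reaches toward the decoding site and Rpl4 lines the exit tunnel. The ranges of neighbours in this order overlapped, with Rpl8 at 193 to 634 CPM per kb and Rplp1 at 175 to 602. Per kb of the median transcript length, Rpl4 instead had 317 CPM per kb. The lowest levels were those of Rps13 (0.411 CPM per kb), Rpl30 (0.0698) and Rpl26 (0.00143), with 99.3%, 83.3% and 87.4% of their windows shared. Rps15a had the longest annotated transcript (5179 bases) and Rpl36 the shortest (383 bases). Together the members took 0.143% to 0.240% of the counts of a liver library at day 2 and 0.273% to 0.955% of a lung library.

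In the liver, 300 mg/kg-d for 2 days was the dose at which ribosomal protein genes fell in both sexes, by small amounts. In females 27 of 39 members fell and none rose, with a median log2 fold change of -0.29 over the 39 (range -0.46 to 0.02). In males 11 fell and none rose, with a median of -0.23 (range -0.33 to 0.13), and all 11 were among the 27 of the females. At 200 mg/kg-d 1 member, Rpl6, fell in females. Tests were edgeR's quasi-likelihood test with Benjamini-Hochberg adjustment over all genes of the contrast and a threshold of 0.05. CPM values in the dose comparisons are scaled with TMM, which adjusts library totals so that the bulk of genes is centred. Over all 12627 genes tested, the share lower was 14.7% in females and 6.47% in males at 300 mg/kg-d, and 6.78% in females at 200 mg/kg-d, with medians over all genes of -0.02 in females and -0.00 in males at 300 mg/kg-d. The share higher at 300 mg/kg-d was 15.3% in females and 8.64% in males. The 27 members are 69.2% of 39 and the 11 are 28.2%.

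**Figure D2:**
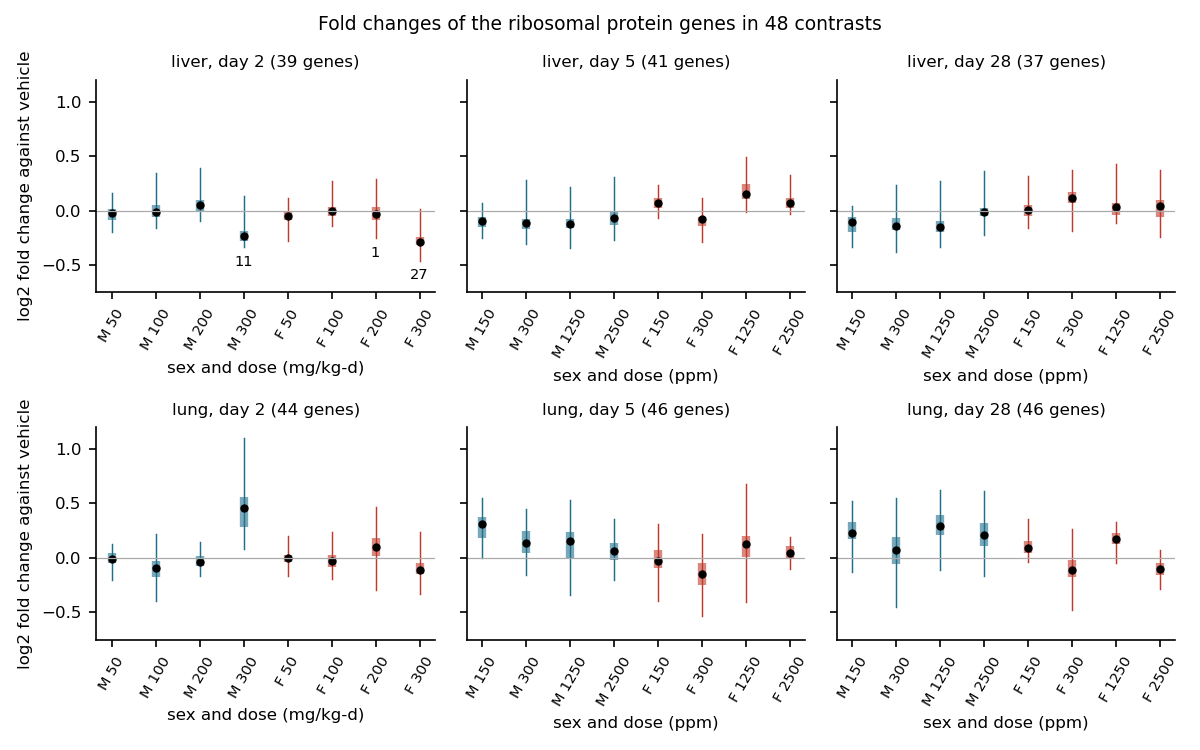
Log2 fold change of the members against vehicle of the same sex in the 48 dose contrasts (M male, F female, dose in mg/kg-d at day 2 and ppm at days 5 and 28). Dots are medians over members, thick bars the middle quartiles, thin lines the range, and numbers count the members past the threshold: 11, 1 and 27 in liver at day 2 and 0 elsewhere.

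Among proteins of the small subunit, Rpsa, which binds on the solvent side and is also known as the laminin receptor, had the lowest mean fold change over both sexes (chr9:120127689-120132369, plus strand, gene coordinates). In females Rpsa had 58.8, 65.3 and 76.2 CPM (lowest, median, highest of 6) in vehicle and 44.6, 48.7 and 51.1 CPM at 300 mg/kg-d. The groups did not overlap, and the log2 fold change was -0.46 (SE 0.10, adjusted p = 0.00033). In males Rpsa had 60.9, 70.9 and 91.9 CPM in vehicle and 47.8, 59.9 and 69.9 CPM at 300 mg/kg-d, and these groups overlapped (-0.31, SE 0.10, adjusted p = 0.0229). Rps14, on the platform of the subunit, fell by 0.33 in males, from 15.3, 16.5 and 20.6 CPM to 11.7, 13.5 and 15.3 CPM, without overlap (SE 0.10, adjusted p = 0.0141). In females Rps14 went from 12.1, 15.2 and 17.2 CPM to 10.3, 11.5 and 13.4 CPM, with overlap (-0.35, SE 0.10, adjusted p = 0.00436).

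Rps15a, one of the split pairs above, fell by 0.42 in females (SE 0.10, adjusted p = 0.00121), from 11.5, 13.3 and 14.4 CPM to 8.22, 9.73 and 11.9 CPM. All 6 female libraries at 300 mg/kg-d were below the vehicle mean, although the highest passed the lowest vehicle library. In males Rps15a was at 11.4, 13.96 and 17.7 CPM in vehicle and 10.3, 12.5 and 14.02 CPM at 300 mg/kg-d and did not pass the threshold (-0.22, SE 0.10, adjusted p = 0.135). Rps3, at the entry of the mRNA channel, was among the least reduced of the members past the threshold: it fell by 0.20 in females (SE 0.07) and its log2 fold change in males was -0.14 (adjusted p = 0.178). Rps2, its neighbour in that channel, stood apart from the other members, with 28.0, 33.05 and 38.2 CPM in vehicle and 27.1, 33.01 and 36.8 CPM at 300 mg/kg-d in females (0.02, SE 0.12) and a log2 fold change of 0.13 (SE 0.12) in males. It was the only member with a fold change above 0 in either sex, and neither passed the threshold. Rps15 fell by 0.33 in females (SE 0.09) and by 0.28 in males (SE 0.09). In all, 10 of 18 small subunit members fell in females and 5 in males, with medians of -0.27 and -0.23.

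Among proteins of the large subunit, 17 of 21 fell in females and 6 in males, with medians of -0.29 and -0.22. Rpl8, the most abundant per kb, had 237, 264.1 and 303 CPM in vehicle and 189, 208 and 236 CPM at 300 mg/kg-d in females, and the groups did not overlap (-0.31, SE 0.09, adjusted p = 0.00751). In males Rpl8 had 246, 267 and 343 CPM and 190, 239 and 269 CPM, with overlap (-0.25, SE 0.09, adjusted p = 0.0446). Rplp1 of the stalk went from 104.05, 106.5 and 126.9 CPM to 81.05, 88.5 and 98.99 CPM in females, without overlap (-0.32, SE 0.09, adjusted p = 0.00421), and fell by 0.29 in males with overlap (SE 0.09). Rpl15 fell by 0.28 in males without overlap, from 34.2, 36.5 and 44.9 CPM to 28.6, 30.8 and 33.7 CPM (SE 0.10, adjusted p = 0.0415), and by 0.27 in females with overlap. The members Rpl4 and Rpl18 also fell in both sexes.

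Rpl6, which was past the threshold in 3 contrasts, more than any other member, is described over all doses in females, a choice that followed from its calls. Its female libraries had 12.1, 14.1 and 15.2 CPM in vehicle, medians of 13.5 and 12.5 CPM at 50 and 100 mg/kg-d, 9.51, 12.2 and 13.8 CPM at 200 mg/kg-d and 10.5, 11.3 and 11.8 CPM at 300 mg/kg-d. The groups at vehicle and 300 mg/kg-d did not overlap, and those at vehicle and 200 mg/kg-d did. The log2 fold change of Rpl6 was -0.25 at 200 mg/kg-d (SE 0.09, adjusted p = 0.0425) and -0.30 at 300 mg/kg-d (SE 0.09, adjusted p = 0.00649). The call at 200 mg/kg-d was lost without replicate 64. The medians over the 39 members in females were -0.05, -0.00, -0.03 and -0.29 at 50, 100, 200 and 300 mg/kg-d. In males the log2 fold change of Rpl6 was 0.00 at 200 mg/kg-d and -0.26 at 300 mg/kg-d (adjusted p = 0.0385). Among the members past the threshold with the smallest mean change over both sexes, Rpl13a fell by 0.31 in females, with a log2 fold change of -0.10 in males, and Rpl4 fell by 0.23 and 0.20 in females and males. Rpl13a is known for a further role in silencing inflammatory mRNAs after its release from the ribosome.

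Taken by shared sequence, the fold changes at 300 mg/kg-d were alike in size. In females, 4 of 4 members with every window shared, 15 of 24 between and 8 of 11 with under 50% shared fell, with medians of -0.28, -0.29 and -0.28. In males the counts were 2 of 4, 5 of 24 and 4 of 11, with medians of -0.26, -0.22 and -0.23. The groups of vehicle and 300 mg/kg-d did not overlap in 10 of 39 members in females, where they did not overlap in 14.7% of all genes, and in 2 members in males (Rps14 and Rpl15), against 5.05% of all genes. As a share of all counts, a scale without further normalization, the members took 0.183% to 0.224% (median 0.203%) in vehicle females and 0.143% to 0.171% (median 0.152%) at 300 mg/kg-d, without overlap. In males the shares were 0.188% to 0.240% (median 0.207%) and 0.149% to 0.202% (median 0.183%), with overlap. In bulk tissue, fewer cells of a type and less RNA per cell cannot be told apart.

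**Figure D3:**
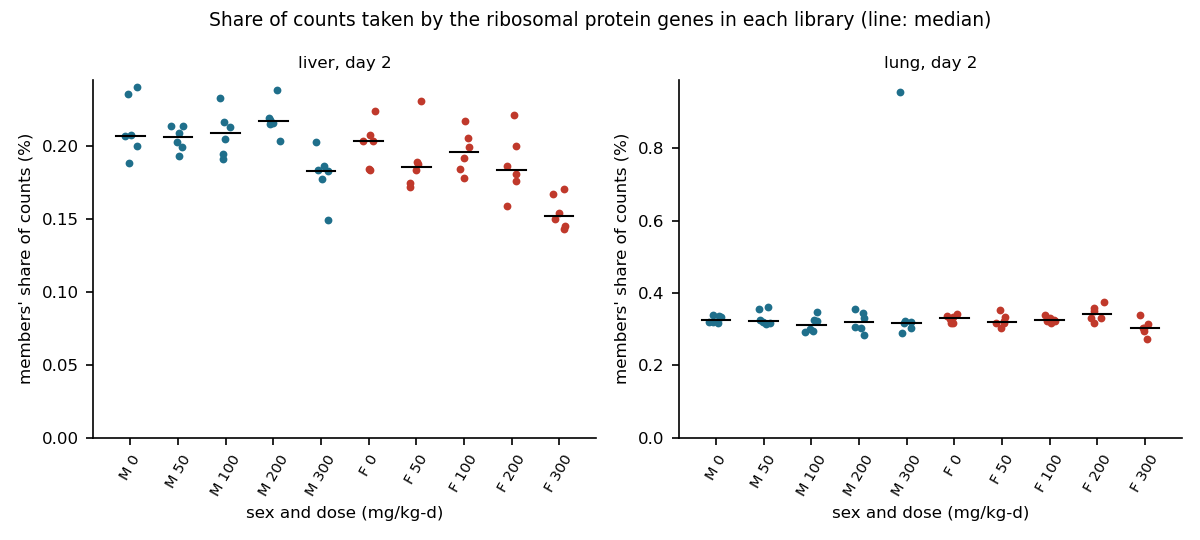
Share of all counts (%) taken by the members in each library at day 2, by sex (M male, F female) and dose in mg/kg-d, with 1 point for each library and a line at the group median. In liver the female libraries at 300 mg/kg-d lie between 0.143% and 0.171%, below the vehicle females, and in lung 1 male library at 300 mg/kg-d stands at 0.955%.

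The counts at 300 mg/kg-d moved with single libraries in males. Leaving out 1 library at a time gave 18 to 31 members lower in females and 0 to 21 in males, the median log2 fold change staying below 0 each time. In males no member passed without vehicle replicate 06 or without replicate 65 at 300 mg/kg-d, 1 passed without vehicle replicate 07, 4 to 7 without replicates 67, 68 or 72, and 19 and 21 without replicates 08 and 69. The medians were -0.18 and -0.19 without replicates 06 and 65, against -0.23 with all libraries. Of all genes, 8.57% and 7.69% passed in either direction without these libraries, and 15.1% with all. The effect in females minus males passed the threshold in none of 253 tests of members over the 6 tables, against 0.00706% of all genes, with 61 at an unadjusted p under 0.05. The share of all genes under that unadjusted p is not given, so the 61 are not read as a result about the members. DESeq2 gave 27 lower members in females and 13 in males.

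The length of transcripts moved with this result. For each library a slope was fitted of log2 CPM, taken relative to the vehicle libraries of the same sex, on log2 transcript length, over the genes that passed the filter on low counts and are no members. A slope above 0 means that long transcripts were relatively higher and short ones lower in that library. In males the slope was -0.0557 to 0.0325 in vehicle libraries and 0.0785 to 0.2 at 300 mg/kg-d. In females it was -0.0439 to 0.0267 and 0.104 to 0.155. The groups did not overlap in either sex. The differences of 0.121 and 0.125 each had an exact permutation p of 0.00216, the smallest that 6 against 6 can give. The adjusted p was 0.0519 over the 48 contrasts, which does not pass the threshold. With only 2 contrasts at the smallest p, the adjusted value could not be lower, so the threshold cannot decide here. Among genes outside the naming rule, those of 700 to 1000 bases had median log2 fold changes of -0.19 in males and -0.25 in females. Those over 4000 bases had 0.13 in both. Genes under 700 bases had medians of -0.18 in males and -0.19 in females, so the shortest genes were not the most reduced. The share lower was 10.4% in males and 22.4% in females under 700 bases, and 13.8% and 34.1% at 700 to 1000 bases. At 1000 to 2000 bases it was 13.6% and 24.8%, and over 4000 bases 2.35% and 7.3%. The libraries at 300 mg/kg-d were also deeper, with 14905474 to 17758970 counts against 8457034 to 12857743 in vehicle males, and 17210830 to 20398635 against 10280575 to 15439569 in vehicle females. The part of depth in the result was not tested.

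With a smooth trend on length removed from each library, 3 of 39 members passed the threshold in females and 1 in males. Over all genes, 12% were lower in females and 4.73% in males after this removal. These shares are larger than those of the members, so the counts of 3 and 1 are not read as a result about the members. In females the 3 members were Rpsa (-0.34, adjusted p = 0.00474), Rps15a (-0.53, adjusted p = 0.000414) and Rps20 (-0.32, adjusted p = 0.0124), all lower. In males it was Rps15a (-0.33, adjusted p = 0.0475), which did not pass before the removal. The medians over the 39 members were -0.13 in females and -0.10 in males, nearer 0 than without the removal. The removal takes the longest annotated transcript as the length, and for Rps15a that is one of 5179 bases with a coding sequence of 393. For Rps20 it is 3706 bases against a median transcript of 582, and for Rpsa 1938 against 914. With the median length over a gene's transcripts instead, 13 members passed as lower in females and 1 in males, with medians of -0.21 and -0.17, and 12.7% and 5.23% of all genes were lower.

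**Figure D4:**
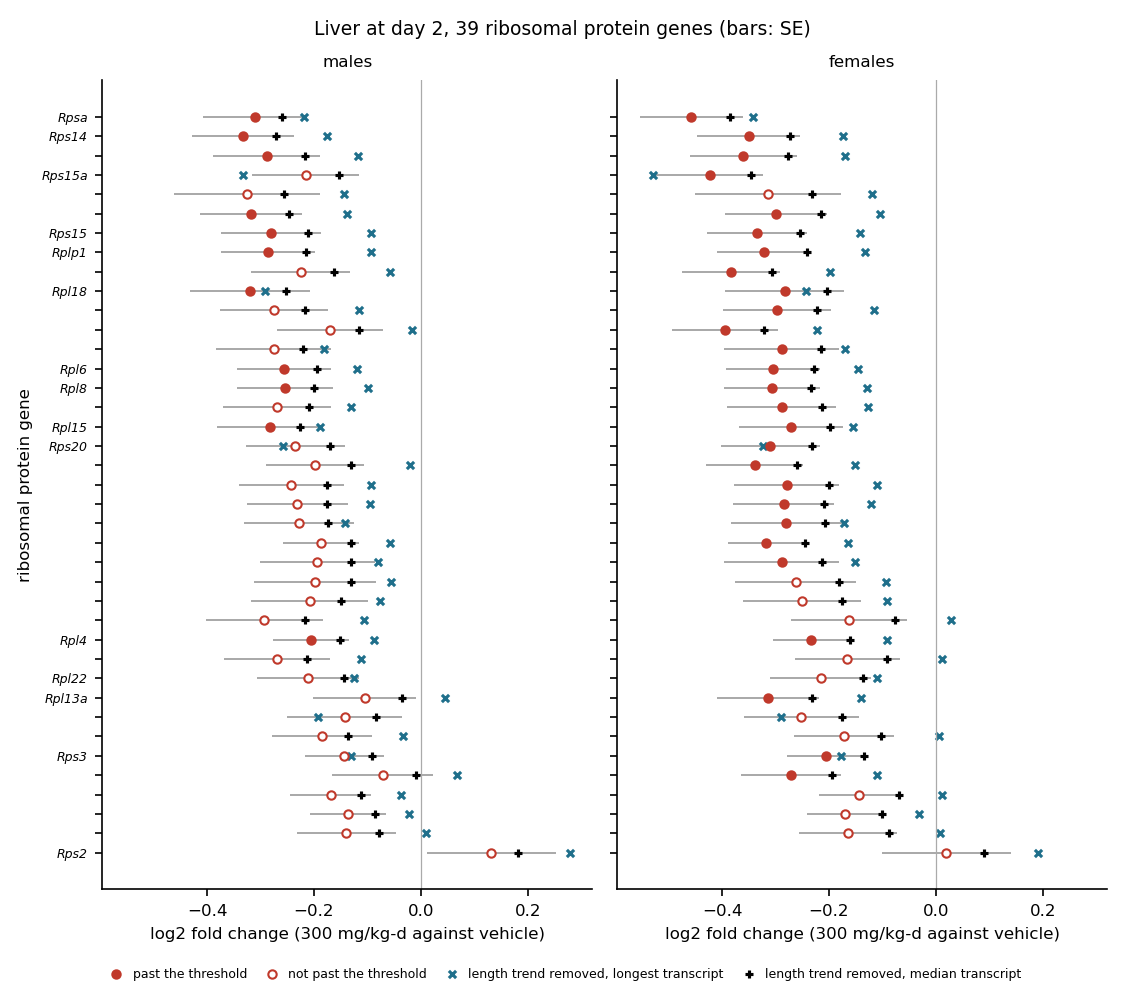
Log2 fold change (300 mg/kg-d against vehicle, bars are SE) of the 39 members in liver at day 2, in males and females, ordered by the mean of both sexes, with some genes of the text labelled. Filled circles passed the threshold, 11 in males and 27 in females; blue crosses and black plus signs give the same fold change after removal of the length trend by the longest or the median transcript, and they lie nearer 0 for most members.

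Across libraries the mean level of the members followed the length slope in every table except the lung of day 2 once 2 libraries were left out. The Pearson correlation of the members' mean log2 level with the slope over the libraries of a table was -0.79 in liver at day 2 (Spearman -0.75, 60 libraries), -0.98 at day 5 (-0.97) and -0.91 at day 28 (-0.84). In lung it was -0.90 at day 2 (-0.33), -0.86 at day 5 (-0.74, 59 libraries) and -0.81 at day 28 (-0.74). Without the 2 libraries farthest from the median slope the values in liver were -0.87, -0.98 and -0.81, and those in lung -0.26, -0.75 and -0.70, so that the lung value of day 2 rests on those 2 libraries. As deviations from group means the correlations were -0.66, -0.98 and -0.90 in liver and -0.93, -0.91 and -0.83 in lung. The lung value of day 2 rests on male replicate 66 at 300 mg/kg-d: the Spearman value over the same deviations was -0.47, and without that library the Pearson value was -0.33 (Spearman -0.33). Without the libraries that stood apart in the other tables (replicate 098 in lung at day 5, 217 in lung at day 28 and 167 in liver at day 28), it was -0.84, -0.73 and -0.78. These are descriptions: both measures come from the same libraries and share their depth and scaling. By its definition, short transcripts in general tend to fall as the slope rises, so the correlations are not shown to be particular to the members.

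**Figure D5:**
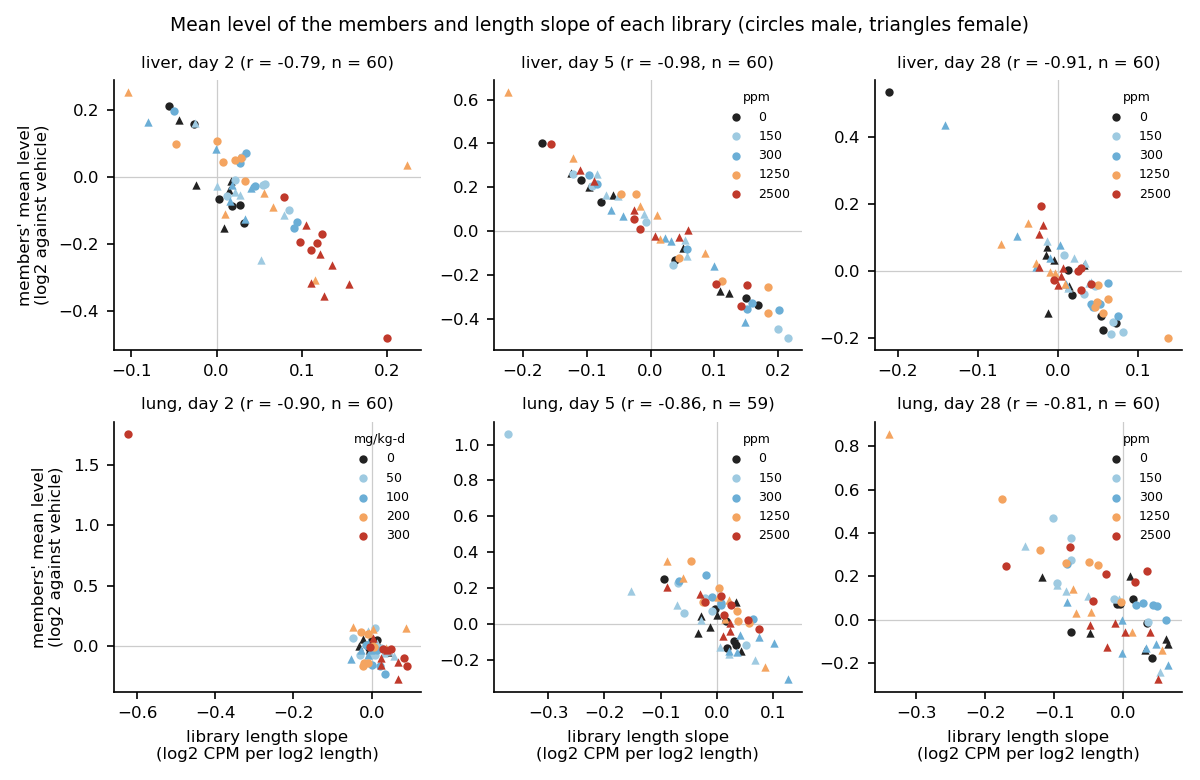
Mean log2 level of the members relative to the vehicle libraries of the same sex (y axis) against the length slope of the library (x axis, log2 CPM per log2 length), 1 point for each library, colour for dose (top left panel as bottom left), circles for males and triangles for females. Points fall from upper left to lower right in the tables other than the lung of day 2, where 1 male library at 300 mg/kg-d lies far from the rest.

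The members were also read one by one. Within groups, 38 of 39 members in liver at day 2 and all members of the other 5 tables had a correlation with the slope below 0. Short transcripts of any kind tend to such values by the way the slope is defined. Short genes in general were not read in this way, so the values are not shown to be particular to the members. The medians over members were -0.48, -0.91 and -0.70 in liver and -0.86, -0.79 and -0.71 in lung. Rpl8 had the lowest value in the lung tables (-0.94, -0.93 and -0.84), Rps15 in liver at day 5 (-0.98) and Rpl22 the highest in liver at day 2 (0.02). The median correlation between pairs of members within groups was 0.56, 0.83 and 0.56 in liver at days 2, 5 and 28 and 0.83, 0.76 and 0.74 in lung. The values of lung at day 2 rest on replicate 66: without it 35 of 44 members had a correlation with the slope below 0, with a median of -0.24, and the median between pairs was 0.32. Without replicates 098, 217 and 167 the medians with the slope were -0.67 in lung at day 5, -0.59 in lung at day 28 and -0.54 in liver at day 28, all members staying below 0, and the medians between pairs were 0.63, 0.64 and 0.42. Among translation genes outside the rule, chosen for naming after their values were seen, Gnb2l1, the small subunit protein also called Rack1, followed the members' mean with correlations of 0.90 to 0.96 over the 6 tables, all libraries included, and Eef1b2, an exchange factor of elongation, with 0.89 to 0.97. Eif3a, a long initiation factor gene, had correlations of -0.86 to -0.01.

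In the other 45 dose contrasts 0 of 1907 tests of members passed the threshold by edgeR's quasi-likelihood test, against 0.494% of tests over all genes, and 290 had an unadjusted p under 0.05. The share of all genes under that unadjusted p is not given, and members moved together within a table. Counts at an unadjusted p in this paragraph are therefore not read as results about the members. DESeq2 put 1 to 4 members past the threshold in 7 of these contrasts, given in the closing section. The medians of the members ran from -0.15 to 0.46 over the 45 contrasts. The highest was in lung at day 2 in males at 300 mg/kg-d, where all 44 members had a fold change above 0 and 35 had an unadjusted p under 0.05. Replicate 66 held 0.955% of its counts in members, against 0.291% to 0.322% in the other 5 libraries of its group, with a members' mean of 1.75 (log2) above vehicle and a slope of -0.624. Rpl13, the member with the highest fold change there, had 83.9 CPM in replicate 66 and 9.29 to 13.2 CPM in the other 5 libraries, against 8.36 to 12.2 CPM in vehicle. Without replicate 66 the median of the 44 members was -0.06, with 8 above 0. Summed markers of club cells ran from 25061 to 97987 CPM in this group against 31943 to 39772 CPM in vehicle males, and those of neutrophils from 30.3 to 282.5 CPM against 27.6 to 67.2 CPM, with none of these markers at 0 throughout. Their part in the result was not tested.

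Similar single libraries stood behind 3 other contrasts or sets of contrasts. In lung at day 5 in males at 150 ppm, all 46 members had a fold change above 0, with a median of 0.31, which was 0.07 without replicate 098 (0.759% of counts in members, slope -0.371). In lung at day 28 in females at 1250 ppm the median of 0.18 was -0.01 without replicate 217 (0.754% of counts, slope -0.340). In liver at day 28, vehicle male replicate 167 held 0.277% of its counts in members, and the medians of the males at 150, 300, 1250 and 2500 ppm, which share this vehicle group, were -0.11, -0.14, -0.15 and -0.02. Without replicate 167 they were -0.00, -0.02, -0.03 and 0.12, and 1 member passed as higher at 2500 ppm.

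Related gene groups at 300 mg/kg-d in liver at day 2 were read in the same fits, from lists chosen with earlier results of these data known. Of 9 tested ribosomal protein genes outside the naming rule, none passed in males and 2 fell in females: Gnb2l1, from 308 CPM (SD 33.6, n = 6) to 254 CPM (SD 18.3, n = 6), and Rps4l, from 9.36 CPM (SD 2.34) to 5.71 CPM (SD 1.11). Mitochondrial ribosomal proteins, which serve the separate ribosome of mitochondria, fell in 47 of 75 tested genes in females and 30 in males and rose in none, with medians of -0.27 and -0.23. Mrpl12 fell by 0.41 in females (SE 0.08) and 0.47 in males (SE 0.08), and Mrpl35 by 0.46 in females (SE 0.08). After removal of the length trend 31 of the 75 were lower in females and 18 in males. Of 35 complex I subunits, members of the first respiratory enzyme with transcripts of similar length, 12 fell in females and 4 in males, and 4 and 0 were lower after the removal. Ndufa6 fell by 0.36 in females (SE 0.07) and 0.24 in males (SE 0.07).

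Of 18 translation factors and other genes with pyrimidine starts, 2 rose and 4 fell in females and 1 rose and 2 fell in males. Of all genes, 15.3% rose and 14.7% fell in females and 8.64% rose and 6.47% fell in males, and the counts of the lists are to be read against these shares. After removal of the length trend, 2 translation factors were higher and 1 lower in females, and 1 and 0 in males. Eif3a rose by 0.41 (log2, SE 0.09) in females and 0.27 (SE 0.09) in males, and Eef1g, a subunit of the elongation exchange factor, fell by 0.44 in females (SE 0.11). Of 39 ribosome biogenesis genes, 1 rose and 3 fell in females and 0 rose and 4 fell in males, and after the removal 1 was higher and 0 lower in females and 0 and 1 in males. Nhp2, a protein of the particles that modify ribosomal RNA, fell by 0.41 in females (SE 0.11) and 0.42 in males (SE 0.11), and Polr1a, the largest subunit of RNA polymerase I, rose by 0.42 in females (SE 0.14). Of 24 regulators of ribosomal protein synthesis, 5 rose and 2 fell in females and 4 rose and 1 fell in males. Eif4ebp3, an inhibitor of cap-dependent translation, rose by 2.02 in females (SE 0.47), and Rps6kb1 and Mtor, kinases of the growth pathway, by 0.31 (SE 0.07) and 0.41 (SE 0.10). Rps6kb2 fell by 0.38 in males (SE 0.09). After removal of the length trend, 4 regulators were higher and 4 lower in females, and 0 and 2 in males. The summed hepatocyte markers were 138500 to 173150 CPM in vehicle females and 164640 to 182810 CPM at 300 mg/kg-d, and 113680 to 127530 CPM and 112830 to 130490 CPM in males, with none of the 6 markers at 0. Kupffer cell markers were 177 to 274 CPM and 128.04 to 249.5 CPM in females, and 129.96 to 183 CPM and 107.6 to 137.9 CPM in males. Malat1 and Neat1, long RNAs kept in the nucleus, summed to 940 to 1299 CPM and 545 to 1270 CPM in females, and 811 to 1502 CPM and 812 to 1541 CPM in males. The part of these markers in the falls of the members was not tested.

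Between liver and lung of vehicle mice, the direction for the members turned with the scaling. The members here were the genes at 10 CPM or more in either tissue of a day, 44, 46 and 46. Of these, 39, 41 and 37 reached the limit in liver, and the rest entered through lung alone. Genes that entered through lung alone lean toward lower values in liver by the way they were chosen. With TMM scaling 41 of 44 members were higher and 1 lower in liver at day 2, 39 and 1 of 46 at day 5, and 21 and 6 of 46 at day 28, with median log2 differences of 0.57, 0.45 and 0.11. Over all genes tested, 41.4%, 41.2% and 40.4% were higher and 51%, 49.4% and 49.4% lower in liver on the 3 days. With counts scaled to the library total, an alternative chosen after seeing the data, 1 member was higher and 38 lower in liver at day 2, 0 and 44 at day 5, and 0 and 46 at day 28, with medians of -0.62, -0.92 and -1.18. The change of scaling moved the median of all genes from -0.21 to -1.40 at day 2, so only the order of members within this comparison is described further.

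In that order Rps2 was the highest in liver relative to lung over the 3 days and Rpl21, a large subunit protein, the lowest. Rpl21 reached 10 CPM in lung only, with means of 6.35 to 7.48 CPM in the liver tables. Among genes that reached the limit in both tissues, Rps14 was the lowest on each day (0.01, -0.08 and -0.36 with TMM scaling). At day 2, Rps2 had 26.8, 34.3 and 43.3 CPM in 12 liver libraries and 24.2, 28.3 and 33.03 CPM in 12 lung libraries, a difference of 1.43 (log2, SE 0.07) with TMM scaling and 0.24 (SE 0.07) with the library total. Rpl21 had 4.77, 6.49 and 6.995 CPM in liver and 13.97, 15.6 and 19.3 CPM in lung, a difference of -0.22 (SE 0.07) and -1.41 (SE 0.07). The CPM ranges, which are scaled to the library total, overlapped for Rps2 and not for Rpl21. Rps14 and Rps19 stood next to Rpl21 at the low end at day 28 (-0.36 each), and Rpl15 and Rpl35a next to Rps2 at the high end (1.00 each). At that day Rps19 and Rpl35a reached 10 CPM in lung only.

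The effect of the highest dose in liver minus that in lung passed the threshold for 24 of 44 members at day 2 in males, all lower in liver, against 3.66% of all genes, with a median difference of -0.62. It passed for no member in the other 5 contrasts, where 1.25% of all gene tests passed. The 24 rest on lung replicate 66: without it 0 passed in males, with a median of -0.13, and 2 passed as lower in liver in females.

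Levels of a few of the 77 genes at the 3 days are given side by side, with no test, because day, route and table cannot be told apart here. Rpl5, which carries the 5S ribosomal RNA and was a member at day 2, had a mean of 10.6 CPM in liver at day 2 and 1.09 and 1.33 CPM at days 5 and 28, and 11.9, 2.41 and 2.83 CPM in lung. Rpl23a, a large subunit protein that reached 10 CPM in no table, had 0.411, 2.79 and 3.05 CPM in liver.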

How the data were processed

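The authors deposited raw counts of reads per gene symbol with no normalization, in 6 tables of 24421 symbols, 1 for each tissue and day. Per the labels' protocols, libraries came from the TruSeq Stranded mRNA kit, which selects polyadenylated RNA. Tools named per the submitters' processing notes are Trimmomatic, Bowtie2, SAMtools and HTSeq, and the build is mm10. The sources used here do not state tool versions, read length, annotation, strand setting or the treatment of reads with several matches. In the lung table of day 28, 1 column without a name was not used.

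From the counts, lowly counted genes were removed with filterByExpr, libraries were scaled with TMM, and contrasts were tested with the quasi-likelihood test of edgeR 4.0.16 in R 4.3.3 (two-sided, robust spread, all 10 groups of a table in 1 fit). Adjusted p-values (Benjamini-Hochberg) cover the 12627 to 15675 genes of each contrast, and 0.05 was the threshold. The SE follows from the log2 fold change and its F statistic. CPM values in the dose comparisons and the levels per kb are TMM-scaled. The 10 CPM limit, levels over vehicle groups, marker sums and the levels in liver against lung are scaled to the library total. Library slopes used log2 CPM (prior count 2) and the longest GENCODE M21 transcript, known for 23376 of 24421 symbols, and were compared by exact permutation over 924 splits, adjusted over 48 contrasts. The length trend was removed with a natural spline of 4 degrees of freedom per library, entered as an offset. Liver and lung were compared in joined fits. The alternatives were other size factors (RLE), omission of the filter, DESeq2 1.42.0, fits of the compared groups alone, a term for where a library's title number falls within blocks of 8, a replicate block between tissues, and the length trend removed. Added after seeing the data were the median transcript length, scaling to the library total, and leaving out single libraries in liver at day 2 and the libraries named. The tests were first tested on simulated data.

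The members and the gene lists were chosen with earlier results of these data known. Named members are those with the highest and lowest fold changes at the highest dose among members past the threshold, those past it in most contrasts (Rpl6, then 10 members tied at 2), the extremes of level per kb, of transcript length and of the difference between tissues, and all members of contrasts with 5 or fewer calls. From each list up to 3 genes with the smallest p were named, with the exceptions stated. A few results that this rule would name are not reported here.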

Additional observations from a re-analysis of the deposited data

Results flagged for a closer look

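A library was singled out where its gap to the nearest of the other libraries of its group passed Dixon's 95% limit, for the members' share of counts or the length slope. Of 120 sets of libraries tested, 18 had such a library, and chance flags about 1 in 20. In lung at day 2 among males, replicate 66 at 300 mg/kg-d had both a share of 0.955% (next 0.322%) and a slope of -0.624 (next -0.00482), and vehicle replicate 01 a slope of 0.0150. In lung at day 5, male replicate 098 at 150 ppm had a share of 0.759% (next 0.468%) and a slope of -0.371, male vehicle replicate 084 a slope of -0.0949, and 1 female library at 300 ppm a share of 0.346%, the lowest of its group. In lung at day 28, female replicate 217 at 1250 ppm had a share of 0.754% (next 0.492%) and a slope of -0.340, and male replicate 194 at 300 ppm a slope of -0.0813.

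In liver at day 2, male replicate 65 at 300 mg/kg-d had a slope of 0.2 (next 0.123), female replicate 32 at 50 mg/kg-d a share of 0.231%, and female replicate 42 at 100 mg/kg-d a slope of -0.0804. In liver at day 28, male vehicle replicate 167 had a share of 0.277% (next 0.2%) and a slope of -0.211, male replicate 216 at 1250 ppm a slope of 0.137, male replicate 230 at 2500 ppm a share of 0.238%, and female replicate 208 at 300 ppm a share of 0.232%. In the 4 libraries named for both measures, the share was high and the slope low.

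The effect of the highest dose on 24 of 44 members at day 2 in males differed between liver and lung by the test of the difference itself, and 0 did without lung replicate 66.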

How the results depend on the processing

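RLE size factors, DESeq2 and the fits without the low-count filter kept the members of liver at day 2 lower at 300 mg/kg-d, and the counts past the threshold varied. In males the count of 11 was 4 without the filter, 4 with only the groups compared, 2 with the place of the number as a term, 1 with the length trend removed by either length, and 0 to 21 without 1 library. In females the count of 27 was 3 and 13 with the trend removed by the longest and the median length, and 18 to 31 without 1 library. At 200 mg/kg-d in females the count of 1 was 0 without the filter, with the place term, with only the groups compared and without replicate 64, and the 1 gene past the threshold after length removal was higher.

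In the other contrasts, where the count was 0, removal of the length trend gave 1 in liver at day 2 (males, 100 mg/kg-d), 2 and 1 in lung at day 2 (females, 200 and 300 mg/kg-d), 1 in lung at day 5 (females, 1250 ppm), 1 and 2 in liver at day 28 (males and females, 2500 ppm), and 3, 2 and 2 in lung at day 28 (males at 300 and 1250 ppm, females at 300 ppm). By the median length it gave 1 in liver at day 2 (males, 100 mg/kg-d), 1 in lung at day 5 (females, 1250 ppm) and 1 in each of the 3 lung contrasts of day 28. DESeq2 gave 1 in lung at day 2 (males, 300 mg/kg-d), lung at day 5 (females, 1250 ppm), liver at day 28 (males at 150 and 1250 ppm, females at 2500 ppm) and lung at day 28 (females, 300 ppm), and 4 in lung at day 28 (males, 1250 ppm), where the place term also gave 4. Only the groups compared gave 2 in lung at day 2 (females, 300 mg/kg-d), 8 in lung at day 5 (females, 300 ppm) and 4 in lung at day 28 (males, 2500 ppm). Without replicate 167, 1 member passed in liver males of day 28 at 2500 ppm. These counts are given without direction and without the share of all genes called in the same fits. They show only that the count of 0 depends on the setting, and are not read as results about the members. The cause of these changes was not tested.

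Between tissues, scaling to the library total reversed the medians, to -0.62, -0.92 and -1.18 at days 2, 5 and 28, and gave 46 members past the threshold at day 28. For the dose effect at day 2 in liver minus lung, the 24 members of the males became 8 with the length trend removed, 0 with the replicate block and 0 without lung replicate 66, and the 0 of the females became 4 with the library total and 2 without replicate 66. The replicate block used the title's number shared by liver and lung. Deviations of same-numbered libraries had a median correlation of 0.127, 0.0664 and 0.102 at days 2, 5 and 28, above 0.1 in 36 of 49, 16 of 42 and 24 of 46 numbers, and 37, 13 and 29 libraries correlated best with their own number, so not every number lay above 0.1 and they were not taken as pairs. The best match was sought among the lung libraries of the same group. That most libraries at days 2 and 28 correlated best with their own number is a hint from the data, not the design. In the other counts the block kept the vehicle comparison within 1.5 times. No slope difference passed the threshold in the main setting or under the 2 other settings tried. The 2 differences of liver at 300 mg/kg-d sat at the smallest possible p in each setting, so this does not speak to their stability. The 30 genes below 10 CPM in every table fell outside the rule and were not tested as members. The correlation of the members' mean level with the slope was -0.31 in lung at day 2 without replicate 66 and -0.73 in lung at day 5 without replicate 098, both left out after seeing the data.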
